A study of Homo sapiens with 6 samples.

Results

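The genes described here are 34 nuclear receptors, among them the thyroid hormone, vitamin D, corticosteroid, COUP-TF and NR4A receptors. The set leaves out receptors grouped with the PGC-1 network, such as PPARA and ESRRA. They were taken by gene name from the 41497 named entries of the count tables, using the entry on the primary chromosome of each gene. The rule uses no measured value. Of the 34 genes, 23 passed a filter on low counts and were tested, 11 did not pass it, and 3 of these 11 (RXRG, PGR and NR5A2) had no read in any library.

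Sequencing covered poly(A) RNA of HK-2 cells, an immortalised human line of kidney proximal tubular epithelial cells, of the genotype labelled WT. The 3 control libraries came from untreated cells and the 3 TGF-β1 libraries from cells given TGF-β1 for 24 h, and all 6 carry the time label 24 h. The dose used for these libraries is not labelled, and growth medium with serum is labelled for all of them, whereas the methods describe TGF-β treatment of this line without serum. HK-2 is 1 line, so the values describe this line only. The labels do not say that the replicates were separate cultures, so the p-values measure only the spread between these libraries, which may be technical.

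Nuclear receptors share a DNA-binding domain and, in most cases, a pocket that holds a steroid, a thyroid hormone, a vitamin or a lipid. Ligand binding exchanges corepressors for coactivators, many members bind DNA as a heterodimer with a retinoid X receptor, and the orphan members act without a known natural ligand. In the renal tubule, the mineralocorticoid and vitamin D receptors are best known for control of sodium, calcium and phosphate handling.

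Library totals ranged from 21.9 to 26.9 megacounts. The TGF-β1 response genes SMAD7, SKIL, TGFBI and COL1A1 were all higher after TGF-β1. TGF-β1 replicate 1 stood apart from the other TGF-β1 libraries on the second principal component, at 26.95 against -13.17 and -15.14, and THRA and NR4A1 are given with and without it. Of 13 proximal tubule markers, 8 had a read in every library, and the defining genes LRP2 and SLC22A6 had none. Their summed level was 534 to 538 CPM (counts per megacount of scaled library size) in control and 758 to 793 CPM after TGF-β1, most of it from CDH6 and PAX8. The epithelial markers EPCAM, KRT8 and KRT18 summed to 682 to 724 CPM in control and 1001 to 1155 CPM after TGF-β1, with EPCAM lower at -1.25 ± 0.10 on the log2 scale. Summed markers of endothelium, leukocytes, podocytes and distal nephron lay at 93.8 to 104 CPM in control and at 61.2 to 84.7 CPM after TGF-β1, with UMOD among the genes at 0. Nearly all of this sum was CD68, and without it the range was 1.88 to 2.22 CPM in control and 0.207 to 0.239 CPM after TGF-β1. The part of other cells in the changes described here was not tested, and in bulk RNA fewer cells of a type and less RNA per cell cannot be told apart.

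The receptors moved in both directions. Of the 23 tested genes, 13 were called at an edgeR adjusted p under 0.05, where 44.3% of all 14860 genes tested were called. NR2F1, VDR, NR1H3, NR3C1 and THRA were higher after TGF-β1, which is 5 of 23 against 22.2% of all genes. NR1H4, NR4A3, NR3C2, NR2F2, THRB, NR6A1, RORA and HNF4G were lower, which is 8 of 23 against 22.1%. A change of at least 2-fold was called for 8 receptors, 2 higher and 6 lower, and for 9.06% of all genes. The CPM values of the groups did not overlap for 15 receptors, 6 higher and 9 lower, and for 55.6% of all genes. The median log2 fold change was -0.05 over the 23 receptors and 0.01 over all genes. NR1H4 reached the count limit of the filter in the control libraries only, so it could pass the filter only by being high in control. Its call therefore adds no support to the counts of lower receptors.

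**Figure D1:**
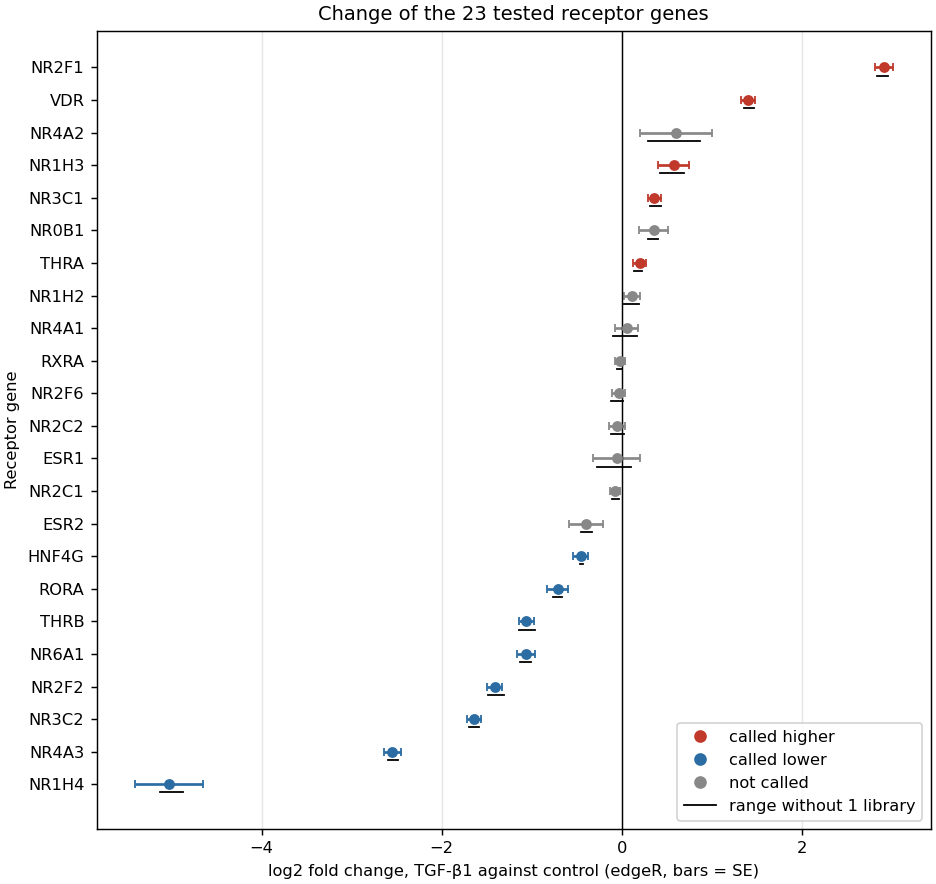
Log2 fold change of each tested receptor, TGF-β1 against control, from the edgeR fit, with SE as bars and the range over the 6 fits that leave out 1 library as a black line. NR2F1 lies at 2.92 and NR1H4 at -5.03, and the 10 receptors that were not called are grey.

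Levels were compared between genes as deposited TPM, which are scaled by gene length. NR1H2, which encodes the oxysterol receptor LXRβ, was the highest of the 34 in both groups, at 79.9 ± 6.49 TPM in control and 79.6 ± 4.71 TPM after TGF-β1 (SD, n = 3). NR2F6 and NR2C1 followed in both groups at ranks 2 and 3. The control libraries of NR2F6, at 64.3 to 67.7 TPM, lay below those of NR1H2, at 74.9 to 87.2 TPM, and above those of NR2C1, at no more than 57.8 TPM. RXRA, NR3C2 and THRB had control means of 31.1, 20.1 and 18.3 TPM, and NR3C2 and THRB overlapped between libraries. VDR moved from rank 12 to rank 5 and NR2F1 from rank 18 to rank 7, while NR3C2 moved from rank 6 to rank 13 and NR4A3 from rank 9 to rank 18. The TPM of all 34 genes summed to 395 ± 5.23 in control and 342 ± 2.55 after TGF-β1. All 3 TGF-β1 sums lay below all 3 control sums, and the exact two-sided permutation test gave 0.1, the smallest p it can give for 3 libraries against 3. TPM are scaled to the total of each library. In the edgeR fit, scaling by total counts shifted the median over all genes by -0.11 on the log2 scale. The part of such a shift in the lower sums was not tested.

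**Figure D2:**
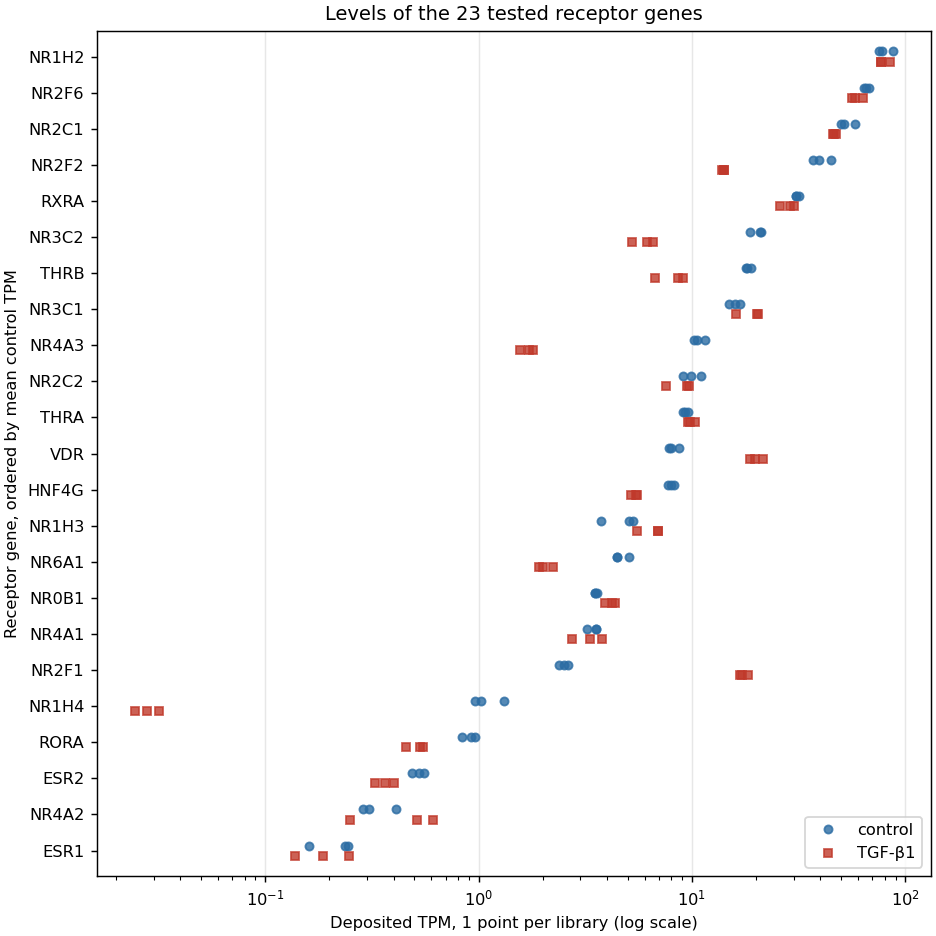
Deposited TPM of the 23 tested receptors on a log scale, with 1 point per library, ordered by mean control level from 79.9 TPM for NR1H2 down to 0.214 TPM for ESR1. NR2F1 and VDR lie far to the right after TGF-β1, and NR1H4, NR4A3, NR3C2 and NR2F2 far to the left.

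The COUP-TF genes, orphan receptors with roles in organ patterning and cell fate, gave the largest rise of the tested receptors and also a fall. NR2F1 (COUP-TFI; gene-NR2F1, hg38 chromosome 5, 93583222 to 93594613, plus strand) had 3.19, 3.02 and 2.81 CPM in control and 24.7, 21.9 and 21.6 CPM after TGF-β1. Every TGF-β1 library was above every control library. The rise was 7.54-fold, or 2.92 ± 0.10 (SE) on the log2 scale (edgeR adjusted p 3.34e-09). NR2F2 (COUP-TFII; gene-NR2F2, chromosome 15, 96326046 to 96340263, plus strand) had 79.1, 67.9 and 62.9 CPM in control and 26.8, 25.8 and 26.4 CPM after TGF-β1. The lowest control library was more than any treated one. NR2F2 was 2.65-fold lower, at -1.41 ± 0.08 with an edgeR adjusted p of 2.28e-07. NR2F6 (EAR2; chromosome 19, 17231883 to 17245919), the most distant COUP-TF gene, had 47.4, 48.6 and 45.2 CPM in control and 50.7, 42.6 and 44.7 CPM after TGF-β1. Its groups overlapped, and the log2 fold change was -0.03 with a 95% interval from -0.17 to 0.11.

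The window before the NR2F1 start is shown because NR2F1 had the largest rise of the tested receptors. It is the RefSeq sequence of chr5:93582972-93583221 (GRCh38.p14, plus strand, 5′ to 3′), the 250 bases before the transcription start that the count tables use, and it overlaps no exon listed there. Capitals mark CAGAC, the SMAD box bound by Smad3 and Smad4, which begins 26 bases before the start. CAGAC is common, and its share of all windows is given with the other motifs.
NR2F1: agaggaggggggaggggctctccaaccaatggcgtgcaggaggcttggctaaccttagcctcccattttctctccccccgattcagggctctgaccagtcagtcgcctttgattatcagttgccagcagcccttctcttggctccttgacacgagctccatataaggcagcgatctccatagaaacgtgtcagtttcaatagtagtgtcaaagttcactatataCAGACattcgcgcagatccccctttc

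Both COUP-TF genes that changed have an antisense RNA that starts close by on the other strand, and each moved in the direction of its neighbour. NR2F1-AS1 (chromosome 5, 93409356 to 93581320, minus strand) starts 1902 bases from the NR2F1 start. It had 2.04, 3.11 and 2.47 CPM in control and 12.8, 10.9 and 11.1 CPM after TGF-β1, with a log2 fold change of 2.19 ± 0.15 (edgeR adjusted p 9.2e-07). NR2F2-AS1 (chromosome 15, 96127360 to 96327361, minus strand) starts 1315 bases inside NR2F2 and had 3.77, 4.21 and 4.35 CPM in control and 0.691, 1.28 and 1.05 CPM after TGF-β1. Its log2 fold change was -2.03 ± 0.22 (edgeR adjusted p 2.73e-05), and neither antisense RNA had overlapping groups. Neither shared an exon base with its receptor in the tables. Antisense RNAs named after a receptor were looked up after the values were seen. Of the 9 found, the other 7 did not pass the count filter.

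**Figure D3:**
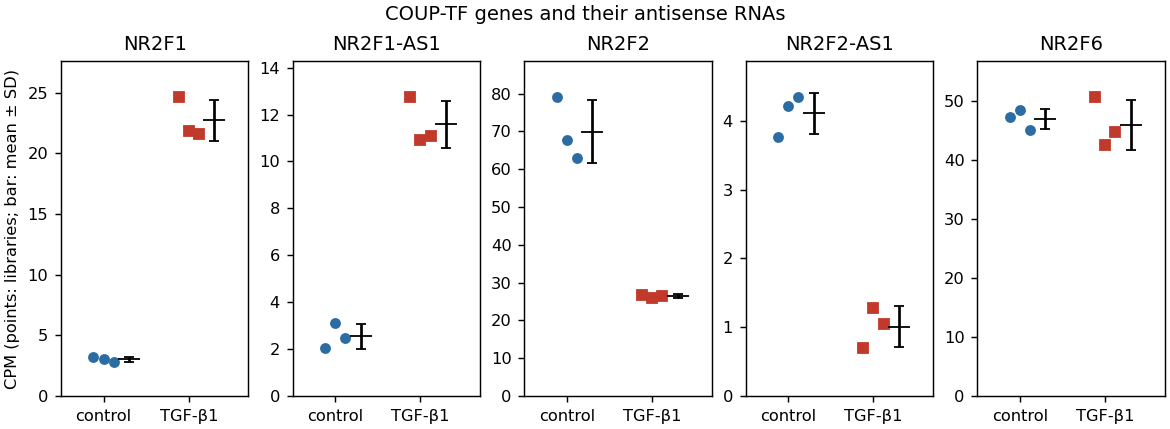
CPM of the 3 COUP-TF genes and the antisense RNAs of NR2F1 and NR2F2, with 1 point per library and the mean ± SD (n = 3) beside the points. NR2F1 and NR2F1-AS1 are higher in all 3 TGF-β1 libraries, NR2F2 and NR2F2-AS1 are lower in all 3, and the libraries of NR2F6 overlap.

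NR4A genes encode immediate-early orphan receptors, which many stimuli induce within minutes to hours. At 24 h, NR4A3 (NOR-1; gene-NR4A3, chromosome 9, 99821885 to 99866893, plus strand) was at 25.3, 22.8 and 21.6 CPM in control and at 3.76, 4.14 and 4.01 CPM after TGF-β1. The groups lay far apart. It was 5.84-fold lower, at -2.55 ± 0.09 on the log2 scale (edgeR adjusted p 6.73e-09). NR4A1 (NUR77; chromosome 12, 52022832 to 52059507) had 7.89, 8.62 and 8.44 CPM in control and 10.2, 8.56 and 7.11 CPM after TGF-β1, so the groups overlapped. Its log2 fold change of 0.06 had a 95% interval from -0.20 to 0.31 and turned negative without TGF-β1 replicate 1, at -0.10, and with total counts only, at -0.05. NR4A1 shares 8.51% of its exon bases with NR4A1AS, which had no read. NR4A2 (NURR1; chromosome 2, 156324432 to 156332724) was low, with 10, 8 and 7 control reads against 19, 14 and 6 TGF-β1 reads. It was not called at 0.60 ± 0.40.

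The window of NR4A3 is shown because it holds 4 copies of TGACG, the core of the cAMP response element (CRE), and NR4A3 had the largest fall after NR1H4. It is chr9:99821635-99821884 (RefSeq, GRCh38.p14, plus strand, 5′ to 3′), the 250 bases before the start in the tables. Capitals mark TGACG or its reverse complement CGTCA, whose first bases lie 109, 91, 83 and 25 bases before the start.
NR4A3: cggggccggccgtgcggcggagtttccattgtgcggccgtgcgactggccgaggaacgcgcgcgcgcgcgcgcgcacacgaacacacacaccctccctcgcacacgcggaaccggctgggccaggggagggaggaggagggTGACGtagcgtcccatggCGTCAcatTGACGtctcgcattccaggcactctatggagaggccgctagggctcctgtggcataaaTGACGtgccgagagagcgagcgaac

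Of 35097 RefSeq windows of 250 bases before a transcription start, 0.236% held at least 4 copies of TGACG on either strand and 21.2% held at least 1. These motifs and windows were chosen after the values were seen. CAGAC lay in 38.0% of all windows, and 0.274% of windows held at least 4 copies, among them a window of NR2F2, which was lower, at a start inside the gene. The SMAD palindrome GTCTAGAC lay in 0.182%, the AP-1 motif TGANTCA in 6.57% and the nuclear receptor half-site AGGTCA in 12.1%, each searched on both strands. None of these motifs contains another on either strand. For the receptors, 63 windows of 29 of the 34 genes were counted. VDR, NR4A2, NR2F6, NR0B2 and HNF4G were not part of this count and are named only. VDR is thus missing from the genes called higher below, and HNF4G from those called lower. The 4 receptors called higher had 14 windows, of which 6 held CAGAC and 2 held TGACG. The 7 called lower had 12 windows, with 3 and 3, and the 8 tested but not called had 19, with 10 and 3. A match describes the letters of a window and was not tested as a binding site.

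Corticosteroid receptors moved apart. The glucocorticoid receptor gene NR3C1 (gene-NR3C1, chromosome 5, 143277931 to 143435512, minus strand) had 99.03, 91.4 and 101 CPM in control and 111, 131 and 134 CPM after TGF-β1. All treated libraries were higher on this scale, whereas the TPM values of the groups, 14.9 to 16.8 and 16.1 to 20.3, overlapped. The rise was 1.29-fold, at 0.36 ± 0.08 on the log2 scale (edgeR adjusted p 0.00272). The mineralocorticoid receptor gene NR3C2 (gene-NR3C2, chromosome 4, 148078764 to 148444698, minus strand), the aldosterone receptor, had 46.7, 51.1 and 50.5 CPM in control and 14.4, 17.1 and 16.2 CPM after TGF-β1. No treated library came near the control range. NR3C2 was 3.12-fold lower, at -1.64 ± 0.08 (edgeR adjusted p 3.91e-08).

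Enzymes and target genes of these receptors gave calls in both directions. Of 14 genes listed, 10 were tested, 1 was called higher and 6 were called lower, where 22.2% and 22.1% of all genes were. The other 3 tested genes were not called, and the median log2 fold change was -0.31 against 0.01 over all genes. SCNN1A, the α subunit of the epithelial sodium channel and a classical aldosterone target, fell by 3.74 on the log2 scale (SE 0.15, edgeR adjusted p 1.11e-08), from 9.27 ± 0.325 to 0.690 ± 0.0876 CPM. CEBPD, a transcription factor induced by glucocorticoids, fell by 2.07 (SE 0.13), from 57.4 ± 3.87 to 13.6 ± 2.82 CPM, and ERRFI1, an inhibitor of the EGF receptor, fell by 0.98 (SE 0.06). PER1, a circadian gene with a glucocorticoid response element, was the gene that rose, by 0.49 ± 0.08. Other widely used readouts of these receptors had smaller differences. FKBP5, a receptor co-chaperone, had 73.9, 74.3 and 73.5 CPM in control and 61.1, 63.0 and 62.2 CPM after TGF-β1, at -0.25 ± 0.05. SGK1, the kinase that protects the sodium channel from removal, was called lower at -0.14 ± 0.05 with an edgeR adjusted p of 0.0463, close to the threshold. TSC22D3 (GILZ) was not called at 0.14 ± 0.07, nor was HSD11B2, which inactivates cortisol, at -0.36 ± 0.30 and under 1 CPM in every library. Sodium channel subunits SCNN1B and SCNN1G had no read in any library.

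Thyroid hormone receptors also moved in opposite directions. THRB (gene-THRB, chromosome 3, 24117153 to 24495708, minus strand) had 60.7, 60.3 and 61.4 CPM in control and 24.9, 32.2 and 30.6 CPM after TGF-β1. The control libraries agreed closely and all lay above the treated ones. The gene was 2.08-fold lower, at -1.06 ± 0.09 (edgeR adjusted p 3.14e-06). THRA (gene-THRA, chromosome 17, 40062193 to 40093867, plus strand) had 17.6, 17.7 and 17.9 CPM in control and 21.9, 19.8 and 19.4 CPM after TGF-β1. Its groups did not overlap in CPM but did in TPM, at 9.12 to 9.62 and 9.54 to 10.3. The gene was called higher at 0.20 ± 0.07 on the log2 scale (edgeR adjusted p 0.0384). Without TGF-β1 replicate 1 it was 0.14 with an adjusted p of 0.1254, and with total counts only it was 0.09 with an adjusted p of 0.328. THRA shares 7.50% of its exon bases with NR1D1 on the opposite strand, which was higher at 0.88 ± 0.16. Whether the counting used strand is not given in the sources used here, and the part of shared reads was not tested.

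Of 7 genes for thyroid hormone activation, transport and response, 4 were tested, with 2 called higher and 1 lower and a median of 0.34. Over all genes tested, 22.2% were called higher and 22.1% lower. HR, a corepressor induced by thyroid hormone, had 0.354, 0.327 and 0.128 CPM in control and 1.11, 1.49 and 1.003 CPM after TGF-β1, at 2.14 ± 0.35 (edgeR adjusted p 0.000604). DIO2, the deiodinase that makes active T3, had 1.20, 1.06 and 1.704 CPM in control and 0.807, 0.662 and 0.525 CPM after TGF-β1, at -0.97 ± 0.27 (edgeR adjusted p 0.0134). HR reached the count limit of the filter in the TGF-β1 libraries only, so it could pass the filter only by being high there, and its test adds no support. Neither gene had overlapping groups, and both were near the lower limit of what was tested.

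VDR (gene-VDR, chromosome 12, 47841537 to 47905022, minus strand), the vitamin D receptor, had 13.7, 12.2 and 12.1 CPM in control and 32.4, 35.3 and 32.9 CPM after TGF-β1. Its treated libraries were all more than every control library. The rise was 2.65-fold, at 1.40 ± 0.07 on the log2 scale (edgeR adjusted p 8.65e-08). Of 8 genes of vitamin D activation, breakdown and response, 4 were tested and 1 was called, higher, and the median was -0.09. Among all genes tested, 22.2% were called higher. CYP27B1, which makes the active hormone, rose by 0.76 ± 0.14 from 3.48 ± 0.493 to 5.91 ± 0.491 CPM (edgeR adjusted p 0.00146). CYP24A1, which breaks the hormone down and is the strongest known target of the receptor, had 135, 130 and 152 CPM in control and 134, 143 and 130 CPM after TGF-β1. These overlapped, and the gene was not called at -0.03 ± 0.07. With total counts only, 2 genes of this list were called.

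The oxysterol receptors NR1H2 (LXRβ) and NR1H3 (LXRα) sense cholesterol derivatives. NR1H3 (gene-NR1H3, chromosome 11, 47248300 to 47269033, plus strand) had 4.65, 4.37 and 3.15 CPM in control and 6.72, 6.37 and 5.11 CPM after TGF-β1. The lowest treated library was only slightly above the highest control library. It was called higher, at 0.58 ± 0.17 (edgeR adjusted p 0.0177). The call was lost without control replicate 3, at 0.43 and an adjusted p of 0.0637, and without TGF-β1 replicate 2, at 0.54 and an adjusted p of 0.0567. NR1H3 shares 4.85% of its exon bases with ACP2 on the opposite strand, which was higher at 1.19 ± 0.07, and the part of shared reads was not tested. NR1H2 (chromosome 19, 50376457 to 50383388) had 64.4, 56.5 and 53.3 CPM in control and 69.2, 59.3 and 60.1 CPM after TGF-β1, with overlap, and was not called at 0.12 ± 0.08.

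Of 10 LXR target genes, 7 were tested, with 1 called higher and 1 lower and a median of 0.20. For all genes tested these shares were 22.2% and 22.1%. ABCA1, the cholesterol exporter, had 234, 245 and 252 CPM in control and 303, 387 and 382 CPM after TGF-β1. It was higher at 0.55 ± 0.09 (edgeR adjusted p 0.000666). SREBF1, the regulator of fatty acid synthesis, was lower at -0.19 ± 0.07 (edgeR adjusted p 0.043), from 78.9 ± 5.16 to 69.0 ± 4.61 CPM. In 4 of the 6 fits without 1 library, 1 gene of this list was called.

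NR1H4 (gene-NR1H4, chromosome 12, 100473866 to 100564414, plus strand) encodes the bile acid receptor FXR. The control libraries held 33, 45 and 31 reads and each TGF-β1 library held 1. The ratio of CPM was 0.0273, with a 95% exact counting interval from 0.00554 to 0.0818. NR1H4 reached the count limit of the filter in the control libraries only, so its edgeR test adds no support. The fitted log2 fold change of -5.03 ± 0.38 (edgeR adjusted p 1.59e-06) rests on 3 reads after TGF-β1 and depends on the prior count. Over the alternative fits it ranged from -5.20 to -3.68. FXR RNA was thus low in control, at 1.10 ± 0.186 TPM, and near the limit of detection after TGF-β1. For the xenobiotic receptors, NR1I2 (PXR) had 2 control reads and 0 TGF-β1 reads, and NR1I3 (CAR) had 19 and 27.

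Of 10 target genes of these 3 receptors, 2 were tested and both were called lower, where 22.1% of all genes tested were. These are too few for the median of -1.79 to describe the list. ABCB1, the drug exporter P-glycoprotein, had 153, 147 and 148 CPM in control and 30.5, 32.6 and 36.2 CPM after TGF-β1. It was lower by 2.17 on the log2 scale, at -2.17 ± 0.07 (edgeR adjusted p 2.18e-09). CYP3A5, a drug-metabolising enzyme, changed from 3.76 ± 0.775 to 1.42 ± 0.206 CPM, at -1.41 ± 0.20. SLC51B, ABCB11 and FGF19, direct targets of FXR, had no read in any library on the entries used, and ABCB11 has 1 other entry. SLC51A, also on the list, had reads in every library but did not pass the count filter.

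RXRA (chromosome 9, 134326455 to 134440585), a retinoid X receptor that many of these receptors bind as a partner, had 71.1, 68.1 and 66.5 CPM in control and 64.02, 70.2 and 68.5 CPM after TGF-β1. The groups overlapped and the log2 fold change of -0.02 had a 95% interval from -0.14 to 0.09. RXRG had no read. RXRB lies in the major histocompatibility region, which the reference holds in several copies, and the tables list 6 RXRB entries. On the primary entry the control libraries had 1, 11 and 30 reads and the TGF-β1 libraries 0, 0 and 1, so it varied widely between control libraries. Over all 6 entries the control libraries held 283 reads and the TGF-β1 libraries 441, and a fit of the summed entries gave 0.61 ± 0.30 with an edgeR adjusted p of 0.138. The level of RXRB is therefore uncertain.

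Coregulators are the proteins that receptors recruit. Of 15 listed, 14 were tested, with 1 called higher and 6 lower and a median of -0.12. The shares over all genes were 22.2% and 22.1%. NCOR1, a corepressor of unliganded thyroid hormone and retinoid receptors, was lower at -0.30 ± 0.07, and the coactivators NCOA3 and NCOA2 were lower at -0.37 ± 0.11 and -0.35 ± 0.10. Every coactivator call was small, and TGF-β1 replicate 1 was the lowest library for NCOA2, NCOA3 and NCOR1. Without control replicates 1, 2 or 3, the number of coregulators called was 3, 4 and 3. GPS2 had no read on its primary entry and has a copy on an alternate contig.

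**Figure D4:**
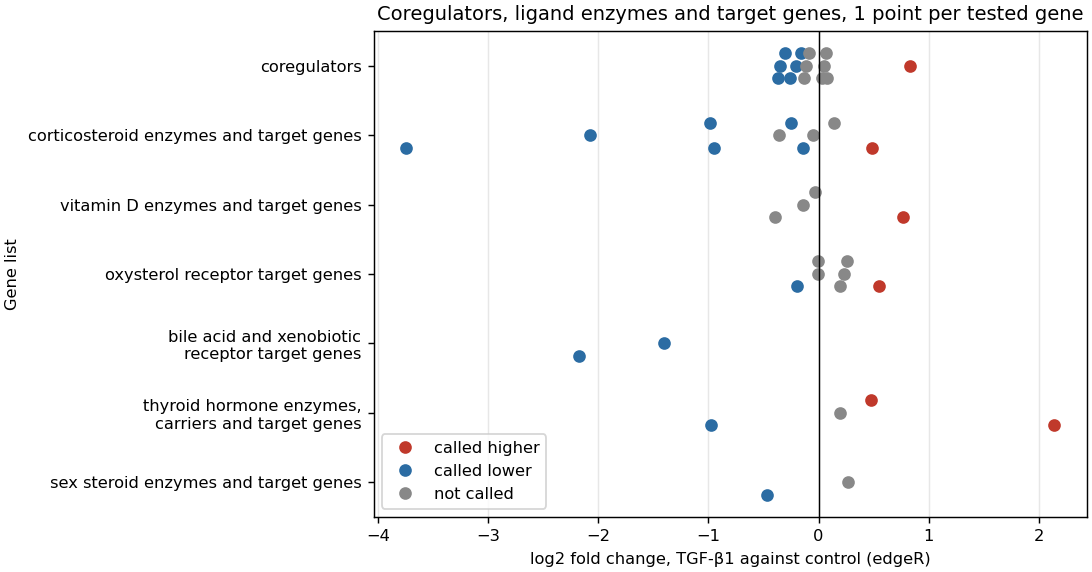
Log2 fold change of each tested gene in the 7 lists of coregulators, ligand enzymes and target genes, 1 point per gene, coloured by call. SCNN1A at -3.74, ABCB1 at -2.17 and CEBPD at -2.07 lie farthest to the left, and HR at 2.14 farthest to the right.

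Over the 7 lists, 71 genes were listed, 43 were tested, 6 were called higher and 17 were called lower, where 22.2% and 22.1% of all genes tested were. The lists hold textbook targets from several tissues. Of the 23 calls, 5 reached 2-fold, where 1347 of the 6582 calls over all genes did. HR, whose test adds no support, was among the 5.

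Orphan receptors of other groups were lower or did not pass the test. RORA (chromosome 15, 60488284 to 61229302, minus strand), a regulator of circadian and lipid genes, had 6.69, 7.56 and 7.12 CPM in control and 3.99, 4.43 and 4.63 CPM after TGF-β1. It was 1.64-fold lower, at -0.71 ± 0.12 (edgeR adjusted p 0.000734), without overlap. NR6A1 (chromosome 9, 124517275 to 124771311, minus strand), the germ cell nuclear factor, which silences pluripotency genes in embryos, had 12.5, 12.3 and 13.8 CPM in control and 5.91, 5.87 and 6.64 CPM after TGF-β1. Its treated values all lay under the control values, and it was 2.09-fold lower, at -1.06 ± 0.10 (edgeR adjusted p 7.5e-06). HNF4G, a relative of the epithelial regulator HNF4A, had 11.8, 12.3 and 11.7 CPM in control and 8.68, 8.64 and 8.83 CPM after TGF-β1. The spread within each group was small beside the fall, which was 1.37-fold at -0.45 ± 0.08 (edgeR adjusted p 0.00109). HNF4A itself was not a member and had 1 read in all 6 libraries.

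The testicular receptors NR2C1 (chromosome 12, 95020229 to 95073618) and NR2C2 (chromosome 3, 14947583 to 15049273) mostly repress other receptors' targets and were not called. NR2C1 had 69.7, 70.8 and 77.7 CPM in control and 71.1, 68.5 and 67.6 CPM after TGF-β1, and its log2 fold change of -0.07 had a 95% interval from -0.19 to 0.04. NR2C2 had 29.2, 31.2 and 34.1 CPM against 26.6, 31.8 and 32.7 CPM, at -0.05 with an interval from -0.23 to 0.12. Both overlapped between groups. NR2C2 shares 49.8% of its exon bases with MRPS25 on the opposite strand, so its value is uncertain. NR0B1 (DAX1; chromosome X, 30304206 to 30309390), which lacks the usual DNA-binding domain and inhibits other receptors, had 1.95, 1.92 and 1.92 CPM in control and 2.65, 2.27 and 2.48 CPM after TGF-β1. Its groups did not overlap, yet it was not called at 0.36 ± 0.16 (edgeR adjusted p 0.0982).

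Estrogen receptors were low. ESR1 (chromosome 6, 151654148 to 152129619) had 0.930, 1.35 and 1.36 CPM in control and 0.883, 1.49 and 1.15 CPM after TGF-β1, with overlap, and its log2 fold change of -0.06 had a wide interval from -0.56 to 0.45. ESR2 (chromosome 14, 64226707 to 64338631) had 1.68, 1.88 and 1.75 CPM against 1.38, 1.45 and 1.19 CPM. Its TGF-β1 libraries all lay lower, and it was not called at -0.40 ± 0.18 (edgeR adjusted p 0.105). Of 7 sex steroid enzymes and target genes, 2 were tested and STS, the steroid sulfatase that frees estrogen precursors, was lower at -0.47 ± 0.09 (edgeR adjusted p 0.00179), from 21.7 ± 1.82 to 15.7 ± 1.61 CPM. The median of this list was -0.10, and 22.1% of all genes tested were called lower. With limma-voom, with entries of a name summed or without control replicate 2, both tested genes were called.

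Receptors under the count filter are given as reads summed over the 3 libraries of a group. NR2E3, a photoreceptor gene, had 30 control reads and 14 TGF-β1 reads, a CPM ratio of 0.462 with a 95% exact counting interval from 0.227 to 0.899, and its groups did not overlap (exact permutation p = 0.1). ESRRB had 8 and 2 reads, a ratio of 0.248 with an interval from 0.0256 to 1.24 (exact permutation p = 0.1). NR0B2 (SHP), a target of FXR in liver, had 15 and 11 reads, a ratio of 0.727 with an interval from 0.302 to 1.69, and NR1I3 had a ratio of 1.41 with an interval from 0.754 to 2.68. NR1I3 shares 14.3% of its exon bases with TOMM40L. RORB had 2 reads in each group, and NR5A1, a steroidogenic regulator, had 1 control read and 0 TGF-β1 reads. The ESRRB groups also did not overlap, while its counting interval included a ratio of 1. For NR0B2, NR1I3, RORB and NR5A1 the groups overlapped, and a difference was not detectable at this depth. A count of 0 in a group allows up to 0.0426 CPM in control and 0.0422 CPM after TGF-β1, taking 3 counts as the limit, and these limits and intervals cover counting error only.

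Several of these receptors have a close relative with a shared ligand or DNA site. The balance within 8 pairs of relatives was therefore followed in every library as the ratio of deposited TPM. The ratio of NR2F1 to NR2F2 was 0.0622 in control and 1.24 after TGF-β1, as means on the log scale, a difference of 4.32 on the log2 scale. NR3C1 to NR3C2 went from 0.787 to 3.15, a difference of 2.00, and NR4A1 to NR4A3 from 0.321 to 1.92, a difference of 2.58. THRA to THRB went from 0.511 to 1.23, a difference of 1.26. In each of these 4 pairs the gene with the lower TPM in control was the one with the higher TPM in every treated library. NR2F2 to NR2F6 fell by 1.37 on the log2 scale and NR1H2 to NR1H3 by 0.47, both without overlap between groups. NR4A1 to NR4A2 and NR2C1 to NR2C2 overlapped, at -0.46 and -0.02. For the 6 pairs without overlap the exact two-sided permutation test gave p = 0.1, the smallest possible, and 0.133 after Benjamini-Hochberg adjustment over the 8 pairs, so no pair could pass a threshold of 0.05. Pairs that share a gene are not independent.

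**Figure D5:**
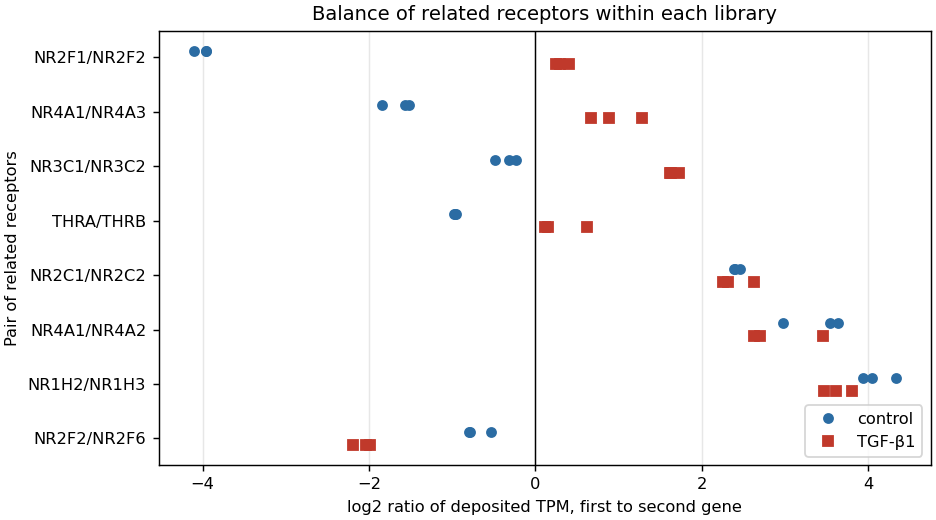
Log2 ratio of deposited TPM, first gene to second gene, of 8 pairs of related receptors, with 1 point per library. The NR2F1/NR2F2, NR4A1/NR4A3, NR3C1/NR3C2 and THRA/THRB ratios lie below 0 in all 3 control libraries and above 0 in all 3 TGF-β1 libraries.

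By subfamily, the NR1 genes had 7 of 10 members tested, with 3 higher and 3 lower, and the NR2 genes 7 of 10, with 1 higher and 2 lower. Of 6 NR3 genes, 4 were tested, with 1 higher and 1 lower. Beside these counts, 44.3% of all genes tested were called, 22.2% higher and 22.1% lower. No subfamily with more than 1 called gene moved in a single direction. Among 11 nuclear receptors outside the 34, 8 were tested, 4 were called higher and 1 lower, where 22.2% and 22.1% of all genes were, with a median of 0.20. Over 15 alternative fits, 11 of the 13 calls held in every fit that included the gene, and THRA and NR1H3 were the exceptions.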

How the data were processed

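Poly(A) RNA of HK-2 cells was measured in 3 control and 3 TGF-β1 libraries, grouped by the treatment in their labels. The submitters' processing notes name CASAVA, featureCounts 2.0.1, DESeq2 1.16.1 and hg38. The aligner and the strand setting are not given in the sources used here. Per the file headers, the authors deposited raw counts per gene for each library, with TPM and FPKM computed from them. FPKM were not used further. Each table held 42095 entries, with 598 loci without a name (0.396% to 0.464% of counts) left out, 4519 named entries on alternate contigs, and 7 broken records that were rejoined.

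Counts of all named entries were filtered with filterByExpr of edgeR 4.0.16 (minimum count 10), scaled with TMM and tested by the two-sided quasi-likelihood F test over 14860 genes, with Benjamini-Hochberg adjustment over all of them and a threshold of 0.05. CPM used TMM-scaled library sizes. Intervals of log2 fold changes are the estimate ± 1.96 SE. Read ratios have 95% exact binomial intervals. The test was checked on simulated data. Alternative fits used DESeq2 1.42.0 and limma 3.58.1 under R 4.3.3. Tables and exact tests used scipy 1.17.1 and pandas 2.3.3 under Python 3.11.15.

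The receptors, gene lists and tests were chosen with earlier results of these data known. All 34 receptors are named. Of each list, all called genes were named if 6 or fewer, otherwise the 3 called genes with the largest rise and the 3 with the largest fall, plus CYP24A1, FKBP5, TSC22D3, SGK1, ABCA1, HSD11B2 and DIO2. Genes listed at 0, SLC51A and genes with shared exon bases were named after their values were seen. Marker and check genes serve as checks. Some genes of the lists are not reported here. Alternatives were DESeq2, limma-voom, RLE size factors, total counts only, both other filters, a replicate block, summed entries, a 2-fold limit, a prior count of 2, CPM for the pair ratios, and leaving out each library.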

Additional observations from a re-analysis of the deposited data

Results flagged for a closer look

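The tables hold 5 RXRB entries on alternate contigs besides the primary one, which the comparison of the receptors did not use. The entry on one of these contigs took 9, 10 and 8 control reads against 63, 47 and 17 TGF-β1 reads. At 2.17 on the log2 scale (SE 0.39, edgeR adjusted p 0.00129) it lay above the control level. This entry reached the count limit of the filter in the TGF-β1 libraries only. It could therefore pass the filter only by being high there, and its test adds no support. Another alternate entry held the most reads and was not called at 0.35 (SE 0.19, edgeR adjusted p 0.15). The part of reads placed among near-identical copies was not tested.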

How the results depend on the processing

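Of the 13 receptor calls, 11 held in each alternative fit that included the gene. THRA lost its call in 9 of 15 fits and NR1H3 in 2. Without 1 library, 11 to 13 receptors were called and 3 to 5 were called higher, with 3 higher without control replicate 3 or without TGF-β1 replicate 2. At a fold of at least 2, 8 receptors were called instead of 13, 2 higher instead of 5, and 5 list genes instead of 23. With all genes with a count, 3 receptors were untested instead of 11. Scaling by total counts shifted the median over all genes by -0.11 on the log2 scale, with 2134 genes higher and 4590 lower (3294 and 3288 with TMM). It called 14 receptors, with THRA lost and NR2C1 (-0.18) and ESR2 (-0.50) gained.

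Some uncalled values changed sign. NR4A1 was -0.0510 with total counts only. Without 1 library, the log2 fold change ranged from -0.0954 to 0.173 for NR4A1 (lowest without TGF-β1 replicate 1), from -0.0533 to 0.00745 for RXRA, from -0.114 to 0.0217 for NR2C2, from -0.119 to 0.0188 for NR2F6 and from -0.274 to 0.108 for ESR1. The NR2C1/NR2C2 balance ranged from -0.130 to 0.0546. The cause was not tested.

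With the replicate block, 13 receptors (5 higher, 8 lower) and 23 list genes were called. Same-numbered libraries had correlations of 0.111, -0.0117 and 0.0762, so the numbers were not taken to pair them, and control replicates 2 and 3 each correlated best with another number.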
